A study of Mus musculus with 8 samples.

Results

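The 10 genes described here encode the arginases and the enzymes and regulators that make, modify and sense polyamines, and they were taken by name from a table of 34745 genes in 8 RNA-seq libraries. They are Arg1, Arg2, Odc1, Amd1, Srm, Sms, Sat1, Azin1, Oaz1 and Oaz2, and each had 1 row and passed the filter on low counts. All libraries were made from splenic CD4+ T cells labelled C57BL/6 and wild type, with 2 libraries in each of 4 groups. Th17 cells were kept for 3 days under conditions that favour the helper state making IL-17. Treg cells were kept for 3 days under conditions that favour the suppressive state defined by Foxp3. Th0 cells were stimulated for 3 days with antibodies to CD3 and CD28, and naive cells were taken from the spleen without culture. The labels give neither the cytokines of the cultures nor the age of the mice. They also do not say that the 2 libraries of a group are from different animals or cultures, so each p-value reflects the scatter of these particular libraries, and that scatter may be technical.

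Arginase cleaves arginine to ornithine and urea, and ornithine decarboxylase (Odc1) turns ornithine into putrescine, the first polyamine. Spermidine and spermine are built on putrescine with aminopropyl groups from decarboxylated S-adenosylmethionine, which Amd1 supplies. Dividing lymphocytes raise polyamine synthesis, and spermidine is the source of hypusine, a modified amino acid on the translation factor eIF5A. Cells hold polyamines in check through antizymes, which bind ornithine decarboxylase and send it to the proteasome, and through the acetyltransferase Sat1, which marks spermidine and spermine for export or oxidation. Transcript levels were measured here, and neither polyamines nor enzyme activity.

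Total counts per library ran from 12504463 to 22443368, and Pearson's r between the 2 libraries of a group was 0.984 to 0.987 on log2 CPM, taken over genes, which are not independent replicates. CPM are read counts relative to the TMM-scaled library size. The labelled states were checked against markers. Foxp3, the transcription factor that defines Treg cells, averaged 7.92 CPM in Th17, 293 in Treg, 5.32 in Th0 and 98.2 in naive cells. The cytokine gene Il17a averaged 47.3 CPM in Th17 and also 45.9 CPM in Treg, against 1.31 CPM in Th0. Cd4 was present in every library (616 to 885 CPM). The naive libraries also carried other spleen cells, with 25 rows of myeloid and dendritic cell markers summing to 4695 and 4967 CPM, against 51.0 to 157 CPM in the 6 cultured libraries. CD8 T cell markers (Cd8a and Cd8b1 summed) were at 122 CPM in both Th17 libraries, 426 and 469 in Treg, 176 in both Th0 libraries, and 91.6 and 82.0 in naive. B cell markers (10 genes) summed to 572 and 621 CPM in Th17, 176 and 170 in Treg, 228 and 239 in Th0, and 1715 and 1380 in naive. T cell markers (10 genes) summed to 2859 to 4653 CPM in all 8 libraries. In such mixed samples, fewer cells of a type and less RNA per cell cannot be told apart.

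By adjusted p, the members that separated Th17 from Treg libraries most were Arg1 and Sat1, in opposite directions, followed by Azin1 and Odc1. In Th17 against Treg, 4 of the 10 genes were called at an edgeR adjusted p under 0.05, where 29.2% of all 14690 tested genes were: 3 were higher (Sat1, Azin1 and Odc1; 14.8% of all genes) and 1 was lower (Arg1; 14.5%). In Th17 against Th0, 4 were called, where 28.7% of all genes were, and all 4 were higher (Arg1, Arg2, Odc1 and Srm; 16.1% of all genes were higher and 12.6% lower). In Treg against Th0, 6 were called, where 46.2% of all genes were: Arg1, Arg2, Odc1 and Srm were higher (25.7% of all genes) and Sat1 and Azin1 lower (20.6%). In Th0 against naive, 6 were called, where 67.7% of all genes were: Odc1 and Azin1 were higher (31.3% of all genes) and Arg1, Arg2, Amd1 and Sat1 lower (36.4%). In Th17 against naive, 4 were called, where 63.2% of all genes were: Arg1, Odc1 and Azin1 were higher (30.4% of all genes) and Sat1 lower (32.8%). In Treg against naive, 5 were called, where 56.6% of all genes were: Arg1, Odc1, Srm and Oaz2 were higher (27.6% of all genes) and Sat1 lower (29.0%). The members' shares of calls, from 4 to 6 of 10, are close to or below these backgrounds in the comparisons with naive cells. The median log2 fold change over the members was -0.02, 0.32, 0.41 and -0.34 in the first 4 of these comparisons, beside -0.03, 0.05, 0.09 and -0.08 over all tested genes. Arg1 and Arg2 passed the filter through the groups where they were high, so their calls against Th0 are part of how they entered the test. The same holds for the calls of Arg1 in Th17 and in Treg against naive cells. The comparisons share libraries, since each group enters several of them.

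Per kilobase, Odc1 was the most abundant of the 10 transcripts in each group. It had a mean deposited FPKM of 217 in Th17, 171 in Treg, 100 in Th0 and 75.8 in naive cells, and Sat1 came next in Th17 (35.5), Th0 (38.9) and naive (55.5). In Treg, Oaz1 (25.4), Srm (22.2) and Arg1 (21.0) stood between Odc1 and Sat1 (18.9). Arg1 was at rank 9 or 10 of the 10 by FPKM in the other groups. Oaz2 (2.90 to 3.77 FPKM) and Sms (3.49 to 4.99) were the least abundant members beside the arginases.

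**Figure D1:**
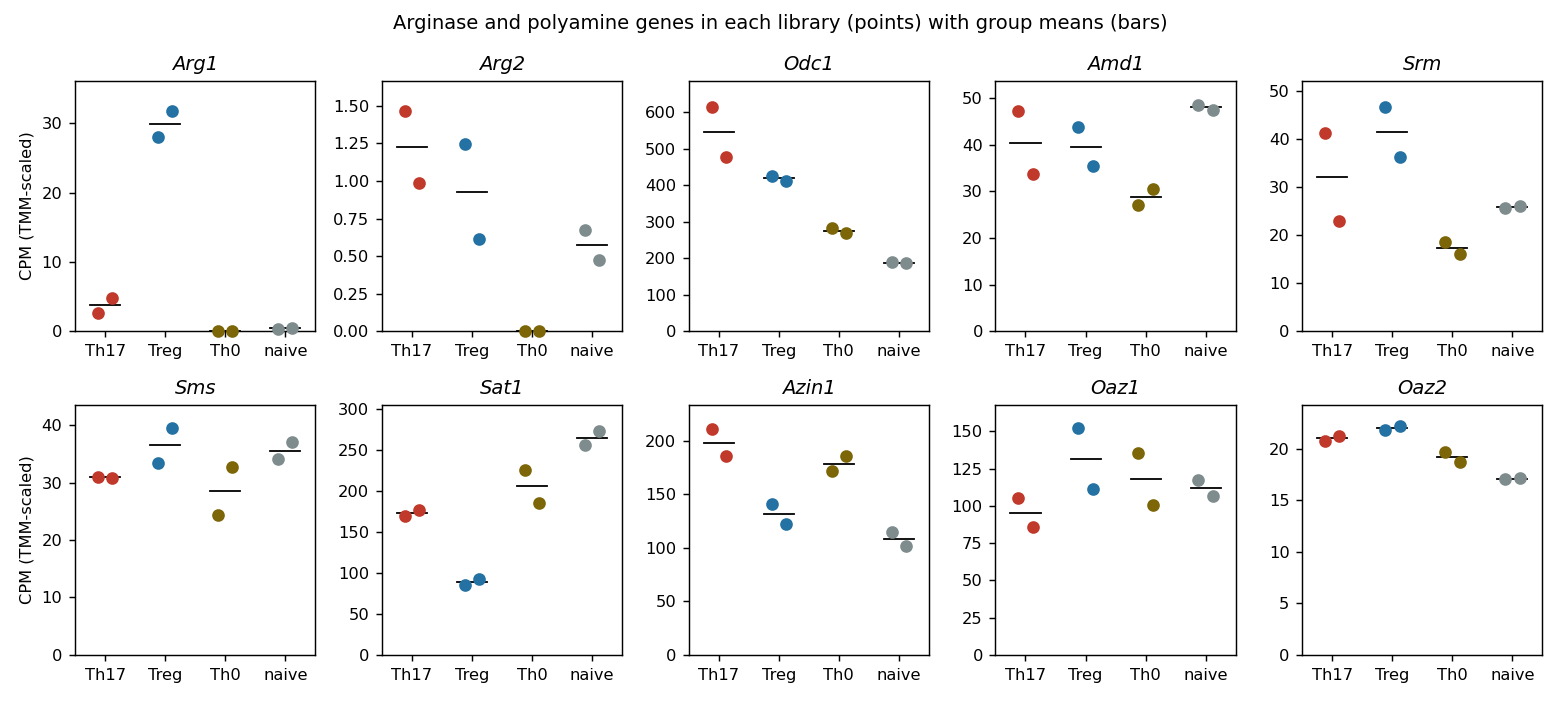
Level of each of the 10 genes in CPM (TMM-scaled, linear axis from 0) in Th17, Treg, Th0 and naive libraries, with each library as a point and the group mean as a bar. Arg1 is near 30 CPM in both Treg libraries and below 5 CPM in the other 6, Odc1 is highest in Th17, and Sat1 is lowest in Treg.

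Sequence was examined for Odc1, the most abundant member, for Sat1, the member with the largest fall in Treg against Th0, and for the antizyme genes, whose reads are shared with a copy. The 250 bases before the start of Odc1 (chr12:17544623-17544872, plus strand) and of Sat1 (chrX:155216450-155216699, minus strand) are given from RefSeq on GRCm38.p6, with GC boxes (GGGCGG on either strand) in capitals.
Odc1: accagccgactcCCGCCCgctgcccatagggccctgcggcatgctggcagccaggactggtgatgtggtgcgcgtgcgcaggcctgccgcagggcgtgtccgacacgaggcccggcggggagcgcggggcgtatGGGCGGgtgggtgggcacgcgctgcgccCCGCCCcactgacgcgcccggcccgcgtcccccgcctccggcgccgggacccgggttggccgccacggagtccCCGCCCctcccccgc
Sat1: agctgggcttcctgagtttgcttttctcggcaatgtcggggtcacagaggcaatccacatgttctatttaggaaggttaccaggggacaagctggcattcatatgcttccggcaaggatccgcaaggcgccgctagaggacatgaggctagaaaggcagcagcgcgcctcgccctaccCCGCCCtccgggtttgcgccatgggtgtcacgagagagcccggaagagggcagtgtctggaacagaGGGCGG
The Odc1 window held 4 GC boxes and the Sat1 window 2, and 32.7% of 32851 promoter windows of this length held at least 1. Neither window held the E-box CACGTG (either strand), the letters bound by Myc and its partner Max, which 6.02% of windows held. Bases after the start were not searched, so an E-box there would not be seen. For Odc1, 0 GENCODE transcripts began near the start used here, against 2 for Sat1. Of the 10 members, 6 had a promoter entry (Amd1, Oaz1, Oaz2, Odc1, Sat1 and Sms). Of these, the E-box was found in 1 of the 2 windows of Sms and in no window of the others.

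Full-length antizyme is made when ribosomes shift reading frame at a stop codon in its transcript, and polyamines promote the shift. The bases around that site are shown for Oaz1, its copy Oaz1-ps and Oaz2 from GENCODE transcripts of GRCm38, with the codon before the stop and the stop itself in capitals.
Oaz1: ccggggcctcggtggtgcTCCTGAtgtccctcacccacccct
Oaz1-ps: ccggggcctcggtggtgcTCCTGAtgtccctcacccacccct
Oaz2: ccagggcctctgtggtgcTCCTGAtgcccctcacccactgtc
Over these 42 bases Oaz1-ps differed from Oaz1 at 0 positions and Oaz2 differed at 7. Over the longest match of 685 bases Oaz1-ps and Oaz1 were 99.71% identical.

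Arg1, the cytosolic arginase best known from liver and from macrophages (chromosome 10, 24915208 to 24927470, GRCm38), was much higher in Treg libraries than in any other. It measured 2.64 and 4.85 CPM in Th17 libraries, 28.0 and 31.8 in Treg, 0.066 and 0 in Th0, and 0.385 and 0.477 in naive. Both Treg libraries lay above both Th17 libraries, which lay above all 4 others. The Th17 to Treg difference was -3.01 on the log2 scale (SE 0.30, edgeR adjusted p = 0.000164), a Th17 level of 0.124 times the Treg level, and it was called in 16 of 16 alternative analyses (-3.49 to -2.63). Th0 held 1 read of Arg1 in all, against 842 in Treg and 109 in Th17, which gives ratios of 837 (95% counting interval 150 to 33087) for Treg over Th0 and 101 (17.8 to 4044) for Th17 over Th0 (edgeR adjusted p = 1.29e-05 and 0.000199). Against naive cells, where 19 reads were counted, Treg was 68.6-fold higher (43.6 to 115), and these intervals cover counting error only. Th0 over naive was 0.082 (0.00197 to 0.516; edgeR adjusted p = 0.0122), and that call was lost without Th0 replicate 3 (adjusted p = 0.0674).

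Many myeloid markers, though not all, were higher in Treg than in Th0 and lower in Th17 than in Treg, as Arg1 was. Of 23 tested rows of myeloid and dendritic cell markers, 18 were higher and 1 lower in Treg against Th0 (25.7% and 20.6% of all genes). In Th17 against Treg, 3 of these rows were higher and 12 lower (14.8% and 14.5% of all genes). The sum over all 25 marker rows was 136 and 146 CPM in Th17, 157 and 137 in Treg, 58.2 and 51.0 in Th0, and 4967 and 4695 in naive. Th17 and Treg overlapped in this sum, of which Flt3 made up 56.4 and 54.0 CPM in Th17 and 15.9 and 9.12 in Treg. Among markers with another order, Flt3 averaged 55.2 CPM in Th17, 12.5 in Treg and 1.90 in Th0. The main Itgam row averaged 12.7 CPM in Th17, 6.82 in Treg and 17.4 in Th0. The macrophage receptor Csf1r was at 2.53 and 3.26 CPM in Th17, 7.86 and 6.90 in Treg, 0.330 and 0.154 in Th0, and 862 and 820 in naive. The naive libraries, which were not cultured, had far more Csf1r and less Arg1 than the Treg libraries. Among markers that often accompany Arg1 in alternatively activated macrophages, Mrc1 was at 4.64 and 5.68 CPM in Th17, 9.24 and 12.9 in Treg, 0.264 and 0 in Th0, and 454 and 396 in naive. Chil3 had no read in Th17 or Th0, and was at 0.524 and 1.07 CPM in Treg and 7.03 and 7.76 in naive. Csf1r, Mrc1 and Chil3 were each called higher in Treg than in Th0 (edgeR adjusted p = 9.99e-06, 2.91e-05 and 0.00406). They were also called lower in Th17 than in Treg (edgeR adjusted p = 0.000475, 0.00868 and 0.0069). Csf1r and Mrc1 had the order of Arg1 among the cultures, while Chil3 did not separate Th17 from Th0. Retnla and Cd209a had no read in any cultured library, and Siglech had none in Th17 or Treg. Whether cells other than T cells contributed Arg1 transcripts was not tested.

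Arg2, the mitochondrial arginase (chromosome 12, 79130777 to 79156301), was scarce in all groups. It had 25 and 13 reads in Th17, 19 and 8 in Treg, 0 and 0 in Th0, and 14 and 11 in naive, which is 1.23 ± 0.342, 0.929 ± 0.446, 0 and 0.576 ± 0.140 CPM (SD, n = 2). With 3 reads per library as the limit that a count of 0 allows, Arg2 was at least 5.72-fold higher in Th17 and at least 4.33-fold higher in Treg than in Th0 (edgeR adjusted p = 0.00395 and 0.00329), and at least 2.68-fold lower in Th0 than in naive (edgeR adjusted p = 0.00397). Th17 and Treg overlapped (log2 fold change 0.39, SE 0.57, edgeR adjusted p = 0.644). The 3-prime part of Arg2 overlaps the opposite strand of Vti1b, with 285 matching bases, and the Vti1b row held 5837 reads in all against 90 for Arg2, so without strand information single Arg2 reads are uncertain. Both Th0 libraries had 624 and 532 Vti1b reads and no Arg2 read.

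Odc1, the rate-limiting enzyme of polyamine synthesis (chromosome 12, 17544873 to 17551502), rose in each culture relative to naive cells, and most under Th17 conditions. It measured 614 and 479 CPM in Th17, 427 and 413 in Treg, 282 and 268 in Th0, and 190 and 187 in naive. The 4 groups did not overlap. The log2 fold change was 0.99 in Th17 against Th0 (SE 0.11, edgeR adjusted p = 0.000336), 0.61 for Treg over Th0 (SE 0.11, edgeR adjusted p = 0.00221) and 0.55 in Th0 against naive (SE 0.11, edgeR adjusted p = 0.00199), each called in 16 of 16 alternatives. Against naive cells the difference was 1.54 in Th17 (SE 0.12, edgeR adjusted p = 3.53e-06). Between Th17 and Treg the difference was smaller (0.38, SE 0.11, edgeR adjusted p = 0.0323) and rested on single libraries. It was called in 10 of 16 alternatives, and without Th17 replicate 2 it was 0.18 (edgeR adjusted p = 0.14). The B cell markers moved with this comparison, 8 of 10 being higher and 1 lower in Th17 against Treg. Both CD8 markers were lower in Th17, beside 14.8% of all genes higher and 14.5% lower. The part of these B cell and CD8 markers in the Odc1, Sat1 and Azin1 differences was not tested. The B cell sums were far higher in naive cells, where Odc1 was lowest and Sat1 highest. Naive cells were also uncultured and far richer in myeloid markers, so nothing about that part is drawn from them. A transcript matching the opposite strand of Odc1 (AW146154, 96.54% identical over 520 bases) held 2.26% as many reads.

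Srm, spermidine synthase (chromosome 4, 148591503 to 148594993), was higher in Treg than in Th0. It measured 41.2 and 22.9 CPM in Th17, 46.7 and 36.3 in Treg, 18.6 and 16.2 in Th0, and 25.7 and 26.0 in naive. The Treg libraries lay above the Th0 and naive ones, while the 2 Th17 libraries lay on either side of the naive pair. The log2 fold change was 1.26 in Treg against Th0 (SE 0.25, edgeR adjusted p = 0.00315, called in 16 of 16 alternatives) and 0.89 in Th17 against Th0 (SE 0.25, edgeR adjusted p = 0.0266). The Th17 call depended on single libraries: without Th17 replicate 2 it was 0.40 (edgeR adjusted p = 0.183), without Th0 replicate 1 it was 0.97 (adjusted p = 0.0744) and without Th0 replicate 3 it was 0.79 (adjusted p = 0.126). Th17 and Treg overlapped (-0.37, SE 0.24, 95% interval -0.91 to 0.18, edgeR adjusted p = 0.285), though without Th17 replicate 2 the difference was -0.86 (edgeR adjusted p = 0.0124). Treg over naive was 0.69 (SE 0.24, edgeR adjusted p = 0.0348), a call lost without Th0 replicate 1 (adjusted p = 0.0501), Treg replicate 2 (0.50, adjusted p = 0.205), naive replicate 1 (adjusted p = 0.107) or naive replicate 2 (adjusted p = 0.104).

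Amd1, the decarboxylase of S-adenosylmethionine (chromosome 10, 40287458 to 40302188), was lower in Th0 than in naive cells. It measured 47.1 and 33.7 CPM in Th17, 43.8 and 35.3 in Treg, 27.1 and 30.4 in Th0, and 48.6 and 47.4 in naive. Th0 lay below the other groups, and Th17 overlapped Treg. The log2 fold change in Th0 against naive was -0.74 (SE 0.17, edgeR adjusted p = 0.00395). The differences of Th17 and Treg from Th0 (0.49 and 0.46, SE 0.17 each) did not pass (edgeR adjusted p = 0.0604 and 0.0543), though they did in 2 and 7 of 16 alternatives, and Th17 against Treg was 0.03 (95% interval -0.35 to 0.42, edgeR adjusted p = 0.917). Amd1 shares sequence with Amd2 and with pseudogenes, and 6 such rows (96.63% to 99.9% identical over their longest match) held from 0.0189% to 18.4% as many reads as Amd1 each. With those reads added, an analysis chosen after seeing the data, Treg against Th0 passed (0.51, SE 0.18, edgeR adjusted p = 0.0391).

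Sms, spermine synthase (chromosome X, 157443855 to 157492287), differed little between groups. It measured 31.0 and 30.8 CPM in Th17, 33.4 and 39.6 in Treg, 24.4 and 32.7 in Th0, and 34.1 and 37.0 in naive. The Th0 libraries lay on either side of the Th17 pair, and no comparison passed with all libraries. Without Th0 replicate 3, the higher of that pair, Th0 was lower than naive (-0.53, edgeR adjusted p = 0.0224, against -0.32 with all libraries) and Treg was higher than Th0 (0.54, edgeR adjusted p = 0.0349, against 0.35). The log2 fold change in Th17 against Treg was -0.24 (95% interval -0.59 to 0.11, edgeR adjusted p = 0.285).

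**Figure D2:**
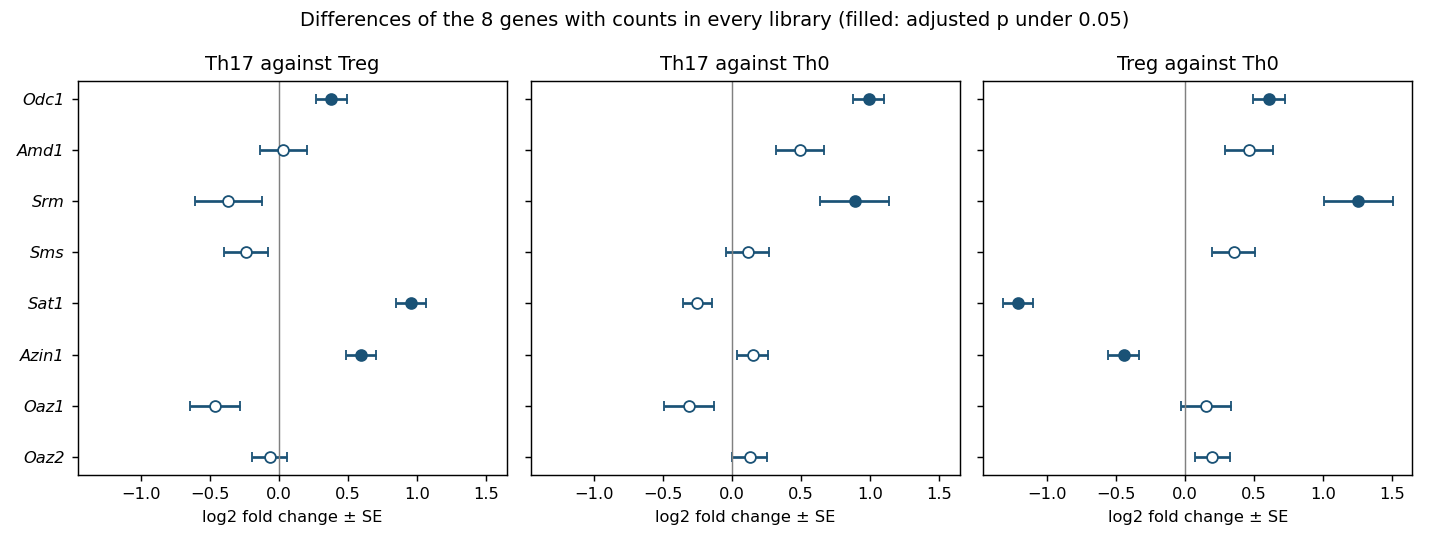
Log2 fold change with its SE (horizontal axis) for the 8 members with reads in every library, in Th17 against Treg, Th17 against Th0 and Treg against Th0, where filled points passed an edgeR adjusted p of 0.05. Odc1 and Srm lie to the right in both comparisons with Th0, and Sat1 lies far to the left in Treg against Th0 alone.

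Sat1, the acetyltransferase that starts polyamine breakdown and export (chromosome X, 155213132 to 155216449), was lowest in Treg. It measured 169 and 176 CPM in Th17, 85.7 and 92.1 in Treg, 225 and 186 in Th0, and 256 and 273 in naive. The 4 groups did not overlap, in the order naive, Th0, Th17 and Treg from high to low. Th17 exceeded Treg by 0.96 on the log2 scale (SE 0.11, edgeR adjusted p = 0.000319), and the Treg difference from Th0 was -1.21 (SE 0.11, edgeR adjusted p = 6.3e-05), both called in 16 of 16 alternatives. Th17 and Th0 did not differ past the threshold (-0.25, SE 0.11, 95% interval -0.49 to -0.01, edgeR adjusted p = 0.106) unless Th0 replicate 3 was left out (-0.39, adjusted p = 0.0371). The difference of Th0 from naive was -0.36 (SE 0.11, edgeR adjusted p = 0.012), and that call was lost when naive replicate 2 (-0.32, adjusted p = 0.0708) or Th0 replicate 3 (-0.22, adjusted p = 0.105) was left out.

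Set against Sat1 in the same library, Odc1 stood highest in Treg. The ratio of Odc1 to Sat1 FPKM was 6.97 and 5.22 in Th17, 9.57 and 8.61 in Treg, 2.41 and 2.78 in Th0, and 1.43 and 1.31 in naive. The order Treg, Th17, Th0, naive held without overlap, while Odc1 alone was highest in Th17. It is a ratio of transcripts per length and no measure of flux.

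**Figure D3:**
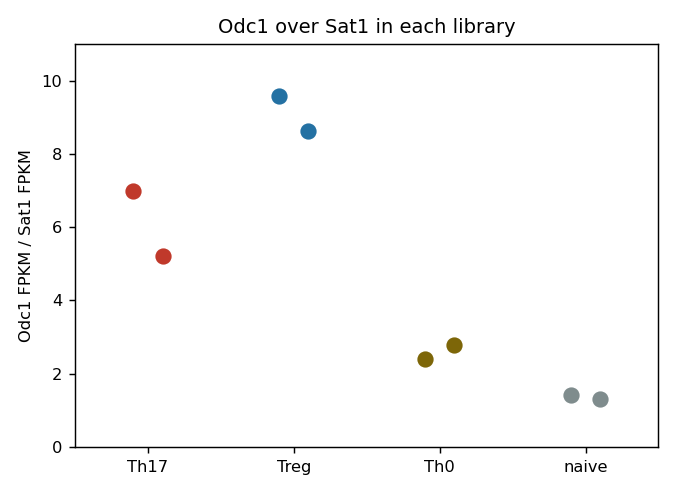
Ratio of the deposited FPKM of Odc1 to that of Sat1 (linear axis from 0) in each library of the Th17, Treg, Th0 and naive groups. The Treg libraries lie at 9.57 and 8.61, above Th17 at 6.97 and 5.22, and the naive libraries lie lowest at 1.43 and 1.31.

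Azin1, an inactive relative of ornithine decarboxylase that draws antizyme away from it (chromosome 15, 38487430 to 38519266), was higher in Th17 than in Treg. It measured 211 and 186 CPM in Th17, 141 and 122 in Treg, 172 and 186 in Th0, and 115 and 102 in naive. Both Th17 libraries and both Th0 libraries lay above both Treg libraries, which lay above the naive pair. Th17 exceeded Treg by 0.59 on the log2 scale (SE 0.11, edgeR adjusted p = 0.00469, called in 16 of 16 alternatives), and the change was -0.44 for Treg over Th0 (SE 0.11, edgeR adjusted p = 0.0102) and 0.72 for Th0 over naive (SE 0.11, edgeR adjusted p = 0.000336). The Treg against Th0 call was lost without Treg replicate 3 (-0.33, edgeR adjusted p = 0.0942). Th17 and Th0 differed by 0.15 (SE 0.11, 95% interval -0.10 to 0.40, edgeR adjusted p = 0.336).

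Few comparisons of the antizymes passed. Oaz1, the main antizyme of most tissues (chromosome 10, 80826656 to 80829290), measured 105 and 85.9 CPM in Th17, 152 and 111 in Treg, 136 and 101 in Th0, and 118 and 106 in naive. The 2 libraries of Treg and of Th0 lay far apart and overlapped other groups, and no comparison passed in edgeR with all libraries (Th17 against Treg -0.46, SE 0.18, edgeR adjusted p = 0.0867). Th17 against Treg passed in 4 of 16 alternatives, among them DESeq2 (-0.44, adjusted p = 0.0453) and without Treg replicate 3 (-0.68, adjusted p = 0.0433). The row of Oaz1-ps, a processed pseudogene on chromosome 17, held 121.7% of the reads of Oaz1 itself, and the printed stretch is the same in both, so the split between the rows is uncertain. With both rows added, an analysis chosen after seeing the data, the sum was 233 and 199 CPM in Th17, 320 and 278 in Treg, 272 and 245 in Th0, and 249 and 241 in naive. The summed libraries of Treg lay above all others, and Th17 lay below all others. The log2 fold change of the sum was -0.47 in Th17 against Treg (SE 0.11, edgeR adjusted p = 0.0121) and 0.29 in Treg against naive (SE 0.11, edgeR adjusted p = 0.0449). It did not pass for Treg over Th0 (0.21, SE 0.11, edgeR adjusted p = 0.144) or for Th17 over Th0 (-0.26, SE 0.11, edgeR adjusted p = 0.104).

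**Figure D4:**
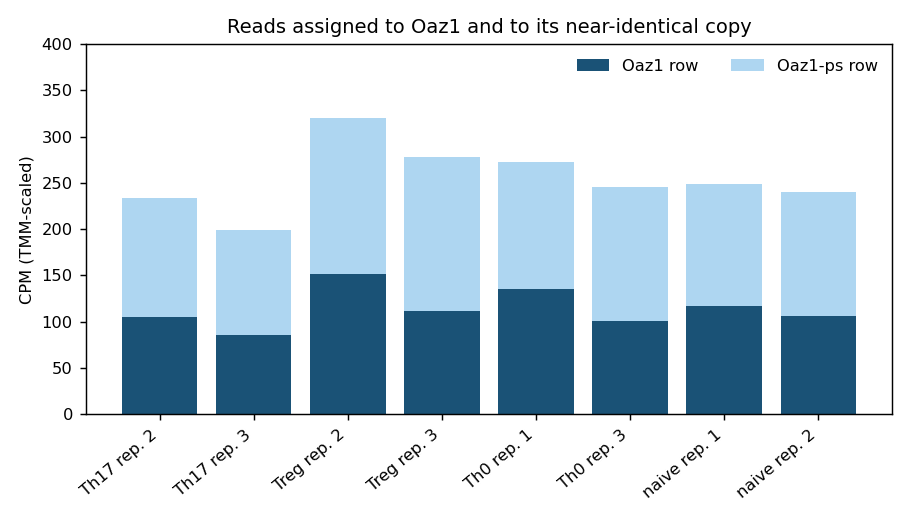
CPM (TMM-scaled, linear axis from 0) assigned to the Oaz1 row (dark) and, stacked on it, to the row of its near-identical copy Oaz1-ps (light) in each library. The copy takes more reads than Oaz1 in each library, and the stacks reach 320 and 278 CPM in Treg and 233 and 199 CPM in Th17.

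Oaz2, a second antizyme (chromosome 9, 65668001 to 65690300), stayed within a narrow range. It measured 20.7 and 21.3 CPM in Th17, 21.8 and 22.2 in Treg, 19.7 and 18.7 in Th0, and 17.1 and 17.2 in naive. The groups did not overlap, but Th17 against Treg was -0.07 (95% interval -0.35 to 0.22, edgeR adjusted p = 0.727), and of the 6 comparisons Treg against naive alone passed (0.36, SE 0.13, edgeR adjusted p = 0.0323). That call was lost in 10 of 16 alternatives, among them each left-out library of naive, Th0 and Treg.

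Of other genes of the polyamine pathway, 8 of a list of 14 were tested, and Smox and Azin2 were called in Th17 against Treg, both higher. In Th17 against Th0 2 were higher and 1 lower, and in Treg against Th0 1 was called, where it was lower. With 29.2%, 28.7% and 46.2% of all genes called in these comparisons, the list's share was near or below the background. Smox, spermine oxidase, measured 114 and 113 CPM in Th17, 28.2 and 41.2 in Treg, 48.6 and 35.6 in Th0, and 23.7 and 20.7 in naive. The Th17 libraries stood above all others, with a log2 fold change of 1.71 in Th17 against Treg (SE 0.20, edgeR adjusted p = 0.000349) and of 1.43 when Th17 was set against Th0 (SE 0.19, edgeR adjusted p = 0.000829). Azin2, another antizyme inhibitor, was scarce and averaged 3.44 CPM in Th17, 0.973 in Treg, 1.49 in Th0 and 1.09 in naive (Th17 against Treg 1.84, SE 0.52, edgeR adjusted p = 0.0277). Slc3a2, a subunit of amino acid transporters, was lower than in Th0 in both Th17 (170 CPM) and Treg (150 CPM, against 252 CPM in Th0), by -0.57 (SE 0.14) and -0.76 (SE 0.14; edgeR adjusted p = 0.0147 and 0.00222). Atp13a3, a polyamine transporter, stayed within 289 to 329 CPM in the cultured libraries.

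Among genes that supply and consume arginine, 17 of a list of 20 were tested. In Th17 against Treg 4 were higher and 2 lower (29.2% of all genes were called), in Th17 against Th0 7 were higher and 1 lower (28.7% of all genes), and in Treg against Th0 5 were higher and 1 lower (46.2% of all genes), so the share called was near the background in the first of these and below it in the last. The arginine transporter gene Slc7a2 followed the order of Arg1 among the cultures, with 5.46 and 6.51 CPM in Th17, 15.1 and 17.3 in Treg, and 0 and 0.154 in Th0, but it stood at 8.14 and 8.02 in naive. It was lower in Th17 than in Treg (-1.44, SE 0.26, edgeR adjusted p = 0.00363), and against 2 reads in Th0 the Treg ratio was 227 (95% counting interval 62.5 to 1881). Slc7a1, the more abundant transporter of the family, measured 130 and 116 CPM in Th17, 196 and 185 in Treg, 158 and 130 in Th0, and 97.0 and 92.6 in naive (Th17 against Treg -0.63, SE 0.11, edgeR adjusted p = 0.00333). Nos2, the inducible nitric oxide synthase that uses the same substrate as arginase, had 1.41 and 4.24 CPM in Th17, 5.83 and 8.66 in Treg, 0.132 and 0.385 in Th0 and none in naive. It was higher than Th0 in both Th17 (3.43, SE 0.76, edgeR adjusted p = 0.0116) and Treg (4.81, SE 0.73, edgeR adjusted p = 0.0011), and Th17 against Treg did not pass (-1.38, SE 0.54, edgeR adjusted p = 0.0906). With 2 and 5 reads in Th0 and 0 in naive, Nos2 also passed the filter through the groups where it was high, so these calls are part of how it entered the test. Gatm, which diverts arginine to creatine synthesis, stood out in Th17 with 97.3 and 85.8 CPM, against 19.7 and 21.7 in Treg, 11.3 and 9.62 in Th0, and 26.9 and 26.8 in naive (Th17 against Treg 2.15, SE 0.13, edgeR adjusted p = 1.64e-05). The transporter gene Slc7a7, at 5.05 and 6.36 CPM in Th17 and 2.16 and 1.84 in Treg, and the proline synthesis gene Pycr1, at 37.7 and 31.7 CPM in Th17 and 18.9 and 25.5 in Treg, were also higher in Th17 (edgeR adjusted p = 0.0107 and 0.0382).

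**Figure D5:**
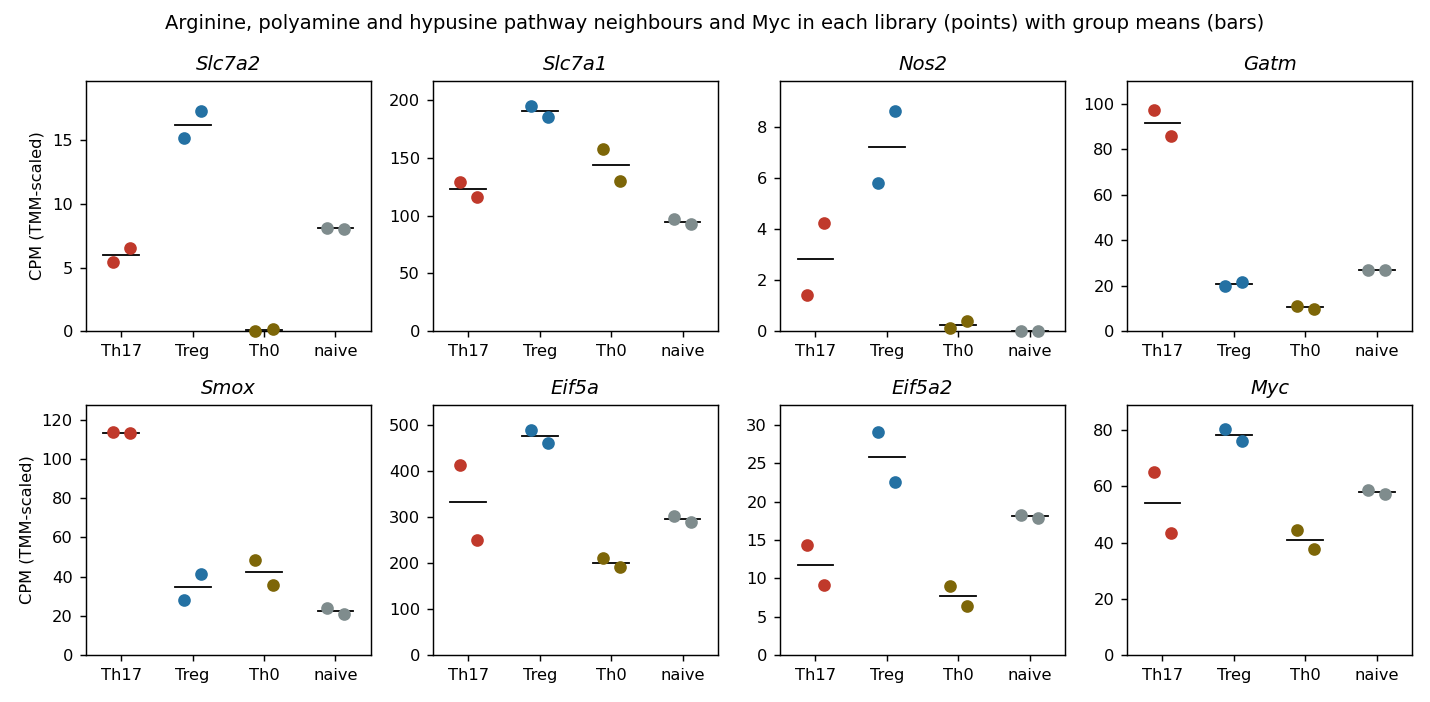
Level in CPM (TMM-scaled, linear axes from 0) of 8 genes around the pathway in Th17, Treg, Th0 and naive libraries, with libraries as points and group means as bars. Slc7a2, Slc7a1, Nos2, Eif5a, Eif5a2 and Myc have their highest mean in Treg, and Gatm and Smox have theirs in Th17.

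Of 4 genes of hypusine formation, 3 were called in Treg against Th0 and 1 in Th17 against Th0, all higher, and 2 were called in Th17 against Treg, both lower, beside 46.2%, 28.7% and 29.2% of all genes. Eif5a, the factor that carries hypusine, measured 414 and 251 CPM in Th17, 489 and 461 in Treg, 210 and 191 in Th0, and 302 and 288 in naive. The Treg libraries lay above all others and the Th17 libraries lay far apart, with a log2 fold change of 1.25 in Treg against Th0 (SE 0.19, edgeR adjusted p = 0.000812) and -0.51 in Th17 against Treg (SE 0.19, edgeR adjusted p = 0.067). Its relative Eif5a2 averaged 11.7 CPM in Th17, 25.8 in Treg, 7.68 in Th0 and 18.1 in naive (Th17 against Treg -1.14, SE 0.24, edgeR adjusted p = 0.00834). Dhps, which carries out the first step of hypusine formation, averaged 16.9, 24.6, 18.1 and 20.4 CPM in the same order (Th17 against Treg -0.54, SE 0.13, edgeR adjusted p = 0.0161).

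Genes of methionine supply and of the salvage of the byproduct of polyamine synthesis made up another list. Of 10 tested genes in a list of 11, 1 was higher (Got1) and 1 lower (Ahcy) in Th17 against Treg, 1 was higher and 3 lower in Th17 against Th0, and 2 were higher and 3 lower in Treg against Th0, beside 29.2%, 28.7% and 46.2% of all genes called. Mat2a, which makes S-adenosylmethionine, averaged 126 CPM in Th17, 154 in Treg, 77.7 in Th0 and 165 in naive, and was higher than Th0 in both Th17 (0.70, SE 0.19, edgeR adjusted p = 0.0218) and Treg (0.98, SE 0.19, edgeR adjusted p = 0.0025). Adi1 of the salvage route averaged 45.4, 36.9, 68.3 and 37.0 CPM in that order and was lower than Th0 in Th17 (-0.59, SE 0.11) and Treg (-0.89, SE 0.11; edgeR adjusted p = 0.00373 and 0.000246).

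Myc, a transcription factor known to act on Odc1, measured 65.1 and 43.3 CPM in Th17, 80.4 and 76.1 in Treg, 44.4 and 37.6 in Th0, and 58.7 and 57.4 in naive. It was higher in Treg than in Th0 (0.93, SE 0.18, edgeR adjusted p = 0.00238). It was lower in Th17 than in Treg (-0.53, SE 0.17, edgeR adjusted p = 0.0477), with the Th17 libraries far apart. Any part of Myc in the Odc1 differences was not tested. Mycn rose in Th17 to 1.52 CPM, against 0.281 CPM in Th0 (2.38, SE 0.59, edgeR adjusted p = 0.0163). With 5 and 3 reads in Th0 and 5 and 11 in naive, Mycn passed the filter through the groups where it was high. Its call is thus part of how it entered the test. Mycl averaged 1.21 CPM in Treg, against 0.600 CPM in Th0 (0.99, SE 0.33, edgeR adjusted p = 0.0395). Of the 4 genes of this list, 2 were called in Treg against Th0 and 1 in Th17 against Th0, all higher. In Th17 against Treg 1 was called, and it was lower. Of all genes, 46.2%, 28.7% and 29.2% were called in these comparisons.

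Likeness of pattern was measured as the root mean square difference in log2 CPM over the 8 libraries, each gene centred on its own mean, among 9516 other genes with a mean of at least 10 CPM. The genes closest to Odc1 were the transferrin receptor Tfrc (0.091), Gm42547 (0.112), 0610007P14Rik (0.114) and the cytokine Osm (0.146). Tfrc averaged 419 CPM in Th17, 288 in Treg, 198 in Th0 and 147 in naive. Its order is that of Odc1 because it was picked for likeness in these libraries. The genes closest to Sat1 were Snx9 (0.128), Zrsr1 (0.146), P2rx4 (0.166) and Maff (0.197), and Snx9 averaged 44.2 CPM in Th17, 24.4 in Treg, 46.8 in Th0 and 62.4 in naive.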

How the data were processed

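RNA-seq of 8 libraries in 4 groups of 2 was analysed. Per the labels' protocols, total RNA was taken with TRIzol and read on the Illumina HiSeq platform. Bowtie2 and RSEM, with GRCm38.p6 and mm10, are listed in the submitters' processing notes without their roles. The annotation release and strandedness are not given in the sources used here. Per the file headers, the authors deposited counts and FPKM for every gene and library. The deposited counts are whole numbers. Each deposited FPKM above 0 (134607 values) could be rebuilt from the count, the library total and 1 length per gene (100% matched to 0.001, relative), and FPKM served only to compare levels between genes.

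Counts were tested with edgeR 4.0.16 (R 4.3.3, limma 3.58.1) in 1 fit of group means: filterByExpr (14690 of 34745 genes kept), TMM scaling, estimateDisp, then glmQLFit with glmQLFTest (4 residual degrees of freedom), with Benjamini-Hochberg adjustment over all kept genes and a threshold of 0.05. SE is the log2 fold change over the square root of F. A count of 0 in a library allows 0.130 to 0.231 CPM (3 counts, counting error only). The steps were tested on simulated data with the same spread for every gene and changes only in well-counted genes. That run does not bear on changes of genes with few reads. Alternatives were DESeq2 1.42.0, limma-voom, scaling by RLE or upper quartile, no filter or 5 CPM, fits of 2 groups, a replicate block and leaving out each library (16 in all). Adding the reads of copies to Amd1, Oaz1 and Oaz2 was chosen after seeing the data. Copies were found with blastn 2.17.0 at 95% identity over at least 200 bases. The members and lists were chosen with earlier results of these data known. Named were all members, the called genes of each list with the largest changes between Th17, Treg and Th0 (up to 4 and up to 2), and Smox, Eif5a, Nos2, Slc7a1, Atp13a3 and Myc. The list gene Pycr3 had no row under that symbol.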

Additional observations from a re-analysis of the deposited data

How the results depend on the processing

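Direction and call of Arg1, Sat1 and Azin1 in Th17 against Treg, and of Odc1 in Th17 and in Treg against Th0, held in all 16 alternatives that bear on them. Leaving out 1 library leaves a lone sample that is assumed to vary like the other groups. Over those settings the number of members called in Treg against naive was 3 to 6 (5 with all libraries), the number of genes called in Th17 against Th0 was 2630 to 4190 (4211 with all libraries), and in Th17 against Treg it was 1878 to 4338 (4294 with all libraries). With the replicate number as a block, 5 members were called in Th17 against Treg in place of 4, Oaz1 being gained (-0.45, adjusted p = 0.011), and 7 in place of 6 in Th0 against naive, Sms being gained (-0.41, adjusted p = 0.036). In Treg against naive the block called Oaz1 (0.45, adjusted p = 0.0105) and lost Oaz2 (0.38). Th17 and Treg alone share both numbers, their deviations correlated at 0.103 over genes, and the labels do not say that a number marks a shared animal or day. Small differences that had not passed changed sign in some settings, and their lowest and highest values with 1 library left out follow. Amd1 in Th17 against Treg ran from -0.24 to 0.25, and was -0.032 with copies added. Arg2 in Th17 against Treg ran from -0.017 to 1.00. Oaz1 ran from -0.13 to 0.29 in Th0 against naive, from -0.0062 to 0.45 in Treg against naive and from -0.082 to 0.38 in Treg against Th0. Sms ran from -0.10 to 0.33 in Th17 against Th0 and from -0.079 to 0.16 in Treg against naive, where it was -0.025 with RLE scaling, -0.025 with DESeq2 and -0.14 with the replicate block. Srm in Th17 against naive ran from -0.17 to 0.68. The causes were not tested. A filter at 5 CPM removed Arg2, so it has no value there.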
